A study of Mus musculus with 10 samples.

Results

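The small leucine-rich proteoglycans are secreted matrix proteins built from leucine-rich repeats, and most of them carry chondroitin, dermatan or keratan sulfate chains. They bind collagen fibrils and set the width and spacing of those fibrils, and several of them also bind transforming growth factor beta (TGF-beta). Fibroblasts of skin, tendon, cornea and bone are their usual source, and each tissue uses its own mixture. The members described here were chosen by name as *Dcn*, *Lum*, *Bgn*, *Ogn*, *Fmod*, *Kera*, *Aspn*, *Prelp*, *Omd* and *Epyc*, which made 10 of the 23201 gene entries of the count table. By protein class, *Dcn*, *Bgn* and *Aspn* belong together, as do *Lum*, *Fmod*, *Kera*, *Prelp* and *Omd*, and *Ogn* with *Epyc*.

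The cells came from a chemical reprogramming course that leads from mouse embryonic fibroblasts (MEFs, of ICR mice) to cells resembling extraembryonic endoderm (XEN-like cells). Every group except the starting cells carried the same treatment, the C6FAE cocktail of CHIR99021, the compound abbreviated 6, Forskolin, AM580 and EPZ004777, in a medium given for 12 days according to the labels. The study's results also describe the single-cell course as driven by C6FAE and treat valproic acid as a separate booster. Its methods list valproic acid as a further compound of the induction medium and a longer course, a difference that is not resolved here. Hand-picked cells were sequenced at 10 time points, which are called d0, d1, d2, d3, d4, d5, d6p, d8, d12 and d20 after the day, where the sources used here do not explain the p. A pair of further groups, d8c and d12c, held cells from colonies picked on days 8 and 12.

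Of 808 cells, the 670 with at least 4000 detected genes were kept, between 20 (d8c) and 86 (d6p) in a group. Their median depth ran from 195480 unique molecular identifiers (UMIs, random tags by which copies of one RNA are counted once) at d20 to 1055206 at d2. Levels are CPM, the UMIs of a gene scaled to the total of the cell without spike-in RNAs, and means of log2(CPM + 1) over cells were compared. The series lists 10 sequenced samples, all labelled C6FAE, and cell names do not show which sample a cell came from. All cells were therefore treated as 1 sample, no test between time points was possible, and the differences below have no replicate check. Cells carry running numbers, and means over blocks of 24 numbers are given where they spread widely, since such blocks may stand for libraries. Intervals are exact Poisson for UMIs and exact Clopper-Pearson for shares, at 95%, and cover counting error only. Beside a share of 0, the share that 3 cells of the total would make is given as a limit, and it limits cells with a UMI, not cells expressing the gene. The fibroblast markers (8 genes, including *Col1a1*, *Prrx1* and *Thy1*) summed to a median of 2714 CPM at d0, 8137 at d8, 5810 at d12 and 241 at d20, where *Osr1* and *Postn* were at 0. The XEN markers (8 genes, including *Sox17* and *Gata4*) summed to a median of 49.1 CPM at d0, 40.6 at d12 and 1268 at d20, and at d0 *Sall4*, *Foxa2* and *Amn* were at 0.

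The members lie in a few close rows in the genome, given here on NCBIM37 (mm9), the build to which the reads were aligned. *Dcn* (chr10:96942245-96980777), *Lum* (chr10:97028135-97035337), *Kera* (chr10:97069817-97076322) and *Epyc* (chr10:97106702-97145088) follow one another on the plus strand within 202844 bases, with no other protein-coding gene between them. *Aspn* (chr13:49639812-49662926), *Omd* (chr13:49678135-49687978) and *Ogn* (chr13:49703440-49719869) stand in the same way within 80058 bases on the plus strand. This row lies inside *Cenpp*, a kinetochore protein gene read from the minus strand, whose exons share 0 bases with theirs. *Prelp* (chr1:135806881-135817991, minus strand) and *Fmod* (chr1:135933831-135944854, plus strand) are 115839 bases apart, and *Bgn* (chrX:70728941-70741272) stands alone. Exons of *Prelp* share 350 bases with the antisense transcript *Gm15851* and those of *Epyc* share 315 with *Gm10754*, and whether counting used the strand is not given in the sources used here.

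The chromosome 13 neighbours followed different courses described below, so their promoters are shown with that of *Kera*, the member that was nearly absent at the start and reached its highest level at d8. The sequences are from RefSeq on GRCm38.p6, and each runs from 250 bases before to 50 bases after the start of the gene, all on the plus strand. Capitals mark matches to TATAAA, the TATA box, on either strand.
Aspn, chr13:49544193-49544492: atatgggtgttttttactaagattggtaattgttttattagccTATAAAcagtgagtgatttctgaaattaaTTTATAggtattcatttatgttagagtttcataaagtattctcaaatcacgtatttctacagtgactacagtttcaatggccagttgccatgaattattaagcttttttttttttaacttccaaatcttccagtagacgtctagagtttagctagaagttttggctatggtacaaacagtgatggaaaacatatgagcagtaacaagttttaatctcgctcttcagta
Omd, chr13:49582212-49582511: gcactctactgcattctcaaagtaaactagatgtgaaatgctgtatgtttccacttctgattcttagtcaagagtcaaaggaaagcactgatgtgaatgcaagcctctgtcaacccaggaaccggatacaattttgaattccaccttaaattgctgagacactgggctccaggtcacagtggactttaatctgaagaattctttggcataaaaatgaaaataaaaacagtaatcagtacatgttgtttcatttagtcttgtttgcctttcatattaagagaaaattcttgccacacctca
Ogn, chr13:49607765-49608064: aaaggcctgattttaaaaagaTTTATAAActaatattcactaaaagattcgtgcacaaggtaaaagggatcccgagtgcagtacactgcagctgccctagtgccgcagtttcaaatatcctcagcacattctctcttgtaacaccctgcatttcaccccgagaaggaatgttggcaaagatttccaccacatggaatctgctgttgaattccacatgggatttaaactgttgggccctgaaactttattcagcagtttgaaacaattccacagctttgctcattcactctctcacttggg
Kera, chr10:97606955-97607254: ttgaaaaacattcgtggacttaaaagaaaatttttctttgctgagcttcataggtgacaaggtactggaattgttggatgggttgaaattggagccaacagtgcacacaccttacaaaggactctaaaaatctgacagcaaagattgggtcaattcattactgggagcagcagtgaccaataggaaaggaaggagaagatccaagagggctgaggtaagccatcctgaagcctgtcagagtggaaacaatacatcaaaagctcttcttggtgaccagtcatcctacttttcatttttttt
These windows were poor in G and C, with 31.0% in *Aspn*, 37.7% in *Omd*, 42.3% in *Ogn* and 41.0% in *Kera* against a median of 52.7% over all 32851 promoters of the table. The table held promoters of 8 members and none of *Dcn* and *Lum*, which were therefore not searched. TATAAA stood in those of *Aspn* and *Ogn*, at positions -207 and -178 from the start in *Aspn* and at -229 and -227 in *Ogn*, where the matches on the opposite strands overlap. Of all promoters, 13.6% held it. Elements of factors related to the cocktail were searched on both strands as well. CTTTGAT, the Tcf/Lef element that acts downstream of CHIR99021, stood only in *Epyc* (3.73% of all promoters). The cAMP response element TGACGTCA (1.79%), its shorter form TGACG (20.8%), which TGACGTCA contains, and the AP-1 element TGANTCA (7.81%) stood in none of the 8. A match or its absence in these windows describes letters only.

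Over the whole course the members fell into 3 patterns and a remainder. *Dcn*, *Lum*, *Ogn* and *Kera* were highest at d8 and at or near 0 at d20. *Bgn*, *Aspn*, *Prelp* and *Fmod* had their highest mean log2(CPM + 1) in the MEFs at d0. *Omd* had between 37.1 and 107 CPM in unpicked cells at every time point, d20 included, and *Epyc*, a proteoglycan of growth cartilage, had 5 UMIs in 3 of 670 cells and is not described further. The patterns cut across protein class, since *Dcn* was higher at d8 than at d0 while *Bgn* and *Aspn* of its class were lower. Together the members made up 0.154% of UMIs at d0, 0.0555% at d1, 0.616% at d8, 0.384% at d12 and 0.0108% at d20.

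**Figure D1:**
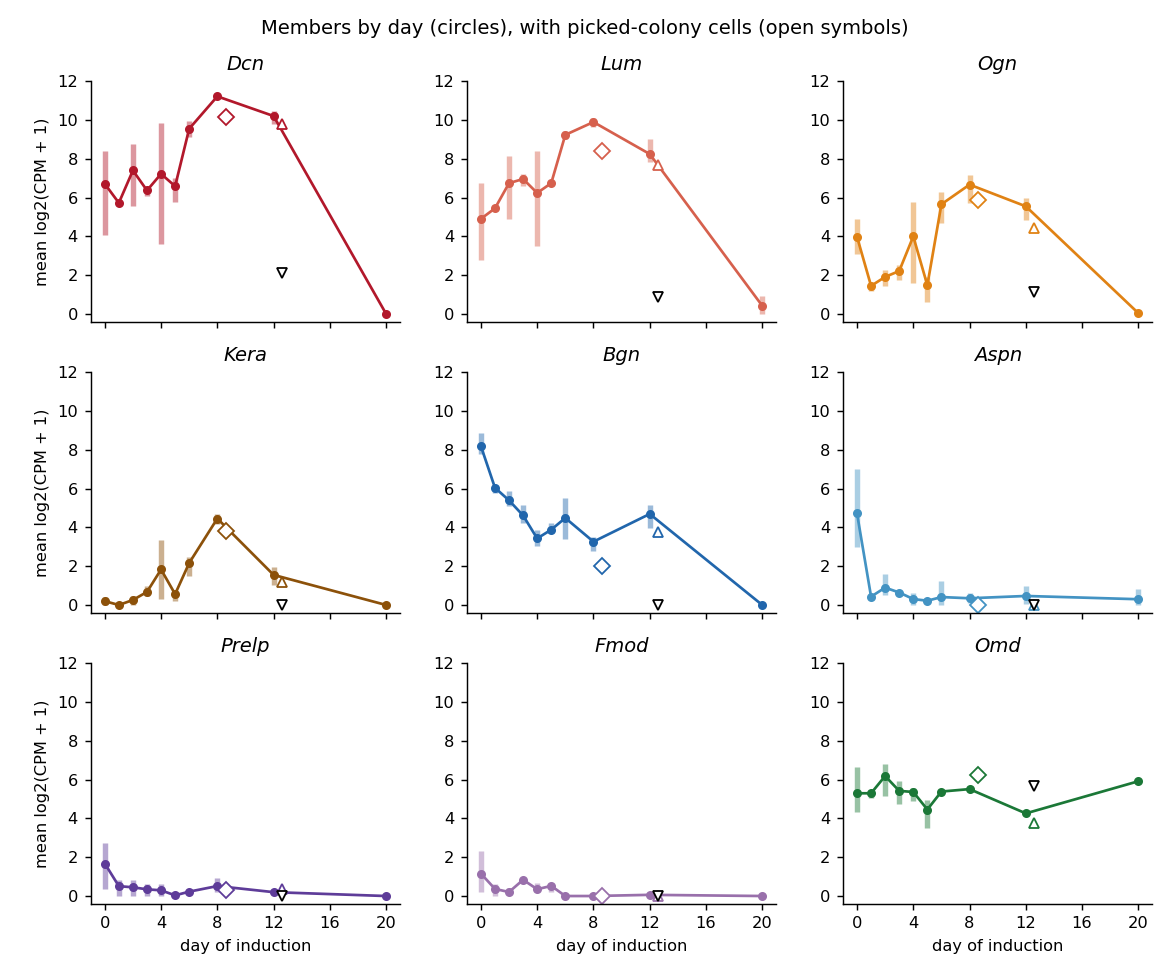
Mean log2(CPM + 1) of 9 members (vertical axes) against the day of induction (horizontal axes), with filled circles for cells not picked from colonies and vertical bars from the lowest to the highest mean over blocks of 24 running numbers. Open symbols, drawn beside their day for legibility, are d8c cells (diamonds) and d12c cells numbered 1 to 24 (upward triangles) and 49 to 96 (black downward triangles). *Dcn* went from 6.70 at d0 to 11.21 at d8 and 0 at d20, *Aspn* from 4.72 to 0.43 within a day, and *Omd* stayed between 4.26 and 6.18 over these days.

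*Dcn* encodes decorin, which binds fibrillar collagen and TGF-beta and carries a single chondroitin or dermatan sulfate chain. Its mean level was 482 CPM at d0, 177 at d1, 509 at d2, 314 at d3, 818 at d4, 412 at d5, 1552 at d6p, 4058 at d8, 2745 at d8c, 2828 at d12, 1365 at d12c and 0 at d20. The level was thus 8.41-fold higher at d8 than at d0 and 5.86-fold higher at d12. Spike-in RNAs made up 3.04% of counts at d0, 5.71% at d8 and 11.4% at d12. The folds given for this and the other members are therefore of CPM and need not hold for RNA per cell. At d0 the cells ran from 0 to 3423 CPM with a median of 160, and 65 of 72 cells (90.3%, 81 to 96%) had a UMI. At d8 they ran from 103 to 11897 CPM with a median of 3472, and at d12 from 61.2 to 9527 with a median of 1874, so every cell of both days had *Dcn* UMIs while the cells of d0 and d8 still overlapped. Within d0 the lowest cell also differed by number, at 23.4 CPM above number 48 and 0 up to it. Here and for the other members, whether each cell with UMIs made the RNA itself was not tested. At d20 no *Dcn* UMI was found in 38 cells, which allows up to 7.89% of cells to hold one by the limit of 3 cells and up to 9.25% by the Clopper-Pearson interval. Taking 3 UMIs over all d20 UMIs pooled as a floor (0.341 CPM), the mean CPM was 8303-fold above the floor at d12 and 1416-fold at d0. The floor is pooled and the levels are means over cells, so these folds give a rough scale and not a bound.

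Ordered by mean log2(CPM + 1), *Dcn* was highest at d8 (11.21), then d12 (10.20), d8c (10.14), d6p (9.54), d2 (7.39), d4 (7.22), d0 (6.70), d5 (6.58), d3 (6.36), d1 (5.72), d12c (5.25) and d20 (0). The blocks of 24 numbers ran from 11.06 to 11.33 at d8 and from 9.77 to 10.46 at d12, which did not overlap. Those of d12 overlapped with d6p (9.14 to 9.95), and from d2 down to d3 the blocks of each neighbour in this order overlapped, while d1 (5.71 to 5.73) lay below d3 (6.09 to 6.57). The blocks of d0 ran from 4.05 to 8.39, with 4.05 in cells 1 to 24, and those of d4 from 3.62 to 9.82. At d4 the 40 cells numbered up to 48 had a mean of 9.80 and a median depth of 778218 UMIs, and the 37 cells above 48 had 4.43 and 322066 UMIs. The part of depth or library in this split was not tested.

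*Lum* encodes lumican, a keratan sulfate proteoglycan that spaces collagen fibrils in the cornea and skin. The mean level of *Lum* was 114 CPM at d0, 162 at d1, 311 at d2, 593 at d3, 361 at d4, 342 at d5, 966 at d6p, 1596 at d8, 542 at d8c, 721 at d12, 201 at d12c and 5.89 at d20. This course was close to that of *Dcn*, with a level 14.0-fold higher at d8 than at d0 and 6.32-fold higher at d12. Cells ran from 0 to 2163 CPM at d0 (median 43.3) and from 123 to 8175 at d8 (median 1198). At d20, 5 of 38 cells held 89 UMIs (71.5 to 110), and without the highest cell, at 209 CPM, the mean was 0.403 CPM instead of 5.89.

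*Ogn* encodes osteoglycin, also called mimecan, a matrix protein of bone, cornea and vessels. In mean CPM it stood at 97.9 at d0, 8.32 at d1, 9.64 at d2, 35.3 at d3, 85.8 at d4, 16.4 at d5, 169 at d6p, 272 at d8, 188 at d8c, 165 at d12, 51.8 at d12c and 0.0487 at d20. It was 11.8-fold lower at d1 than at d0 and 2.78-fold higher at d8, where *Dcn* was 2.73-fold lower and *Lum* 1.42-fold higher at d1. Single cells spread widely at d8, from 0 to 1341 CPM with a median of 160. At d12 the median cell was at 23.6 CPM, far below the mean of 165. At d20 1 UMI was found in 1 of 38 cells.

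*Kera* encodes keratocan, a keratan sulfate proteoglycan known as a marker of corneal keratocytes and also made by tendon cells. It had 11 UMIs (5.49 to 19.7) in 9 of 72 cells at d0 and none in 40 cells at d1. Its mean level was 0.270 CPM at d0, 0.714 at d2, 5.29 at d3, 16.8 at d4, 3.51 at d5, 17.4 at d6p, 116 at d8, 60.7 at d8c, 22.9 at d12, 0.784 at d12c and 0 at d20. After thinning every cell to 50000 UMIs, 1.41% of d0 cells, 62.7% of d8 cells and 12.1% of d12 cells had a *Kera* UMI, against 12.5%, 88.7% and 64.2% without thinning. Between d8 and d12 its mean log2(CPM + 1) fell by 2.90, and at d12 the highest cell (643 CPM) carried much of the mean, which was 13.5 CPM without it. The keratocyte markers (*Kera*, *Aldh3a1* and *Ptgds*) other than *Kera* itself were at 0 at d8. At d12 all 3 had UMIs, with a mean sum of 35.7 CPM, and at d1 *Aldh3a1* alone had a mean of 28.3 CPM. The tendon markers (*Scx*, *Tnmd*, *Mkx* and *Kera* itself) summed to a median of 14.7 CPM at d0, 60.2 at d8, 4.36 at d12 and 0 at d20. This sum holds the rise of *Kera* itself, which made up 116 of a mean sum of 194 CPM at d8 and 0.270 of 495 at d0. Of them *Scx* was at 0 at d8, *Tnmd*, a tendon membrane protein, had a mean of 489 CPM at d0 and 62.9 at d8, and *Mkx*, a tendon transcription factor, had 2.87 and 15.2. The part of tendon cells in the *Kera* level was not tested.

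*Bgn* encodes biglycan, the closest relative of decorin, which carries chondroitin or dermatan sulfate chains. Its mean level was 474 CPM at d0, 107 at d1, 64.2 at d2, 48.7 at d3, 32.5 at d4, 50.005 at d5, 65.0 at d6p, 38.3 at d8, 9.50 at d8c, 65.0 at d12, 16.3 at d12c and 0 at d20. It was lower than at d0 at every later time point, by 4.41-fold at d1, 12.4-fold at d8 and 7.29-fold at d12. At d0 71 of 72 cells had a UMI, with a median of 391 CPM and a highest cell of 2134. At d8 the median was 5.41 CPM and the highest cell 337, below the d0 median. The blocks of 24 numbers ran from 7.77 to 8.88 in mean log2(CPM + 1) at d0 and from 5.79 to 6.20 at d1, without overlap. No UMI was found in 38 cells at d20, and the d0 mean was 1392-fold above the same pooled floor as for *Dcn*, again as a rough scale.

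*Aspn* encodes asporin, a relative of decorin and biglycan that binds TGF-beta and has no glycosaminoglycan chain. *Aspn* had a mean level of 255 CPM at d0, 0.686 at d1, 2.04 at d2, 2.04 at d3, 1.05 at d4, 0.581 at d5, 6.81 at d6p, 3.33 at d8, 0 at d8c, 1.45 at d12, 0 at d12c and 3.28 at d20. The level at d1 was 372-fold below that at d0. At d0 52 of 72 cells (72.2%, 60.4 to 82.1%) had a UMI, the median cell was at 37.8 CPM and the highest at 2763, whereas the highest cell of d1 was at 10.5. Thinned to 50000 UMIs, 45 of 71 d0 cells and 2 of 40 d1 cells had a UMI. Blocks of d0 cells ran from 3.0 to 7.0 in mean log2(CPM + 1), all above the 0.297 to 0.520 of d1. At d20 22 UMIs stood in 2 cells, and the mean was 0.646 CPM without the higher of them.

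*Prelp*, a proteoglycan of basement membranes and cartilage that binds heparan sulfate, and *Fmod*, fibromodulin of tendon and cartilage, were low. *Prelp* had 22.5 CPM at d0, with a UMI in 26 of 72 cells and 464 CPM in the highest, and between 0.0315 and 3.58 CPM in the other groups with UMIs. *Fmod* had 13.5 CPM at d0, where 18 of 72 cells had a UMI. It stood at 32.0 CPM at d3, where 1 cell at 1147 CPM held 92.9% of the UMIs and the mean was 1.88 without it, and it was at 0 at d6p, d8, d8c, d12c and d20. Neither passed a difference of 2 from d0 in mean log2(CPM + 1) at d8 or d12, where *Prelp* differed by -1.16 and -1.47 and *Fmod* by -1.16 and -1.10. On the scale of mean CPM both passed it on both days.

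*Omd* encodes osteomodulin, or osteoadherin, a keratan sulfate proteoglycan best known from bone. Its mean level was 77.3 CPM at d0, 94.0 at d1, 107 at d2, 74.4 at d3, 71.5 at d4, 37.1 at d5, 77.8 at d6p, 69.4 at d8, 142 at d8c, 39.6 at d12, 60.4 at d12c and 98.5 at d20. All 38 cells of d20 had *Omd* UMIs, from 5.89 to 813 CPM with a median of 63.0, and 88.9% had one after thinning against 74.6% at d0 and 56.1% at d12. At d20 it made up 91.4% of the summed CPM of the members, against 5.03% at d0. The d20 cells overlapped with the d0 cells, which ran from 0 to 419 CPM with a median of 43.9. The blocks of 24 ran from 5.82 to 5.97 in mean log2(CPM + 1) at d20, within the 4.34 to 6.63 of d0 and above the 4.21 to 4.32 of d12. Spike-in RNAs made up 3.04% of counts at d0, 11.4% at d12 and 18.0% at d20. Similar *Omd* CPM therefore need not mean similar *Omd* RNA per cell. *Cenpp*, which covers this gene on the other strand, had 15.9 CPM at d0, 5.04 at d12 and 41.5 at d20, where 19 of 38 cells had a UMI, and its part in the *Omd* counts was not tested. The bone markers (*Sp7*, *Bglap*, *Ibsp*, *Alpl* and *Runx2*) summed to a median of 7.08 CPM at d0, 5.27 at d8, 27.2 at d12 and 32.4 at d20. Their median sum was higher at d5 (104 CPM) and d6p (129 CPM). Of them *Bglap* and *Sp7* were at 0 at d20, *Ibsp* had a mean of 0.473 CPM and *Runx2* of 0.656, and *Alpl*, an alkaline phosphatase, had 52.5 against 0 at d0. The part of bone cells in the *Omd* level was not tested.

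**Figure D2:**
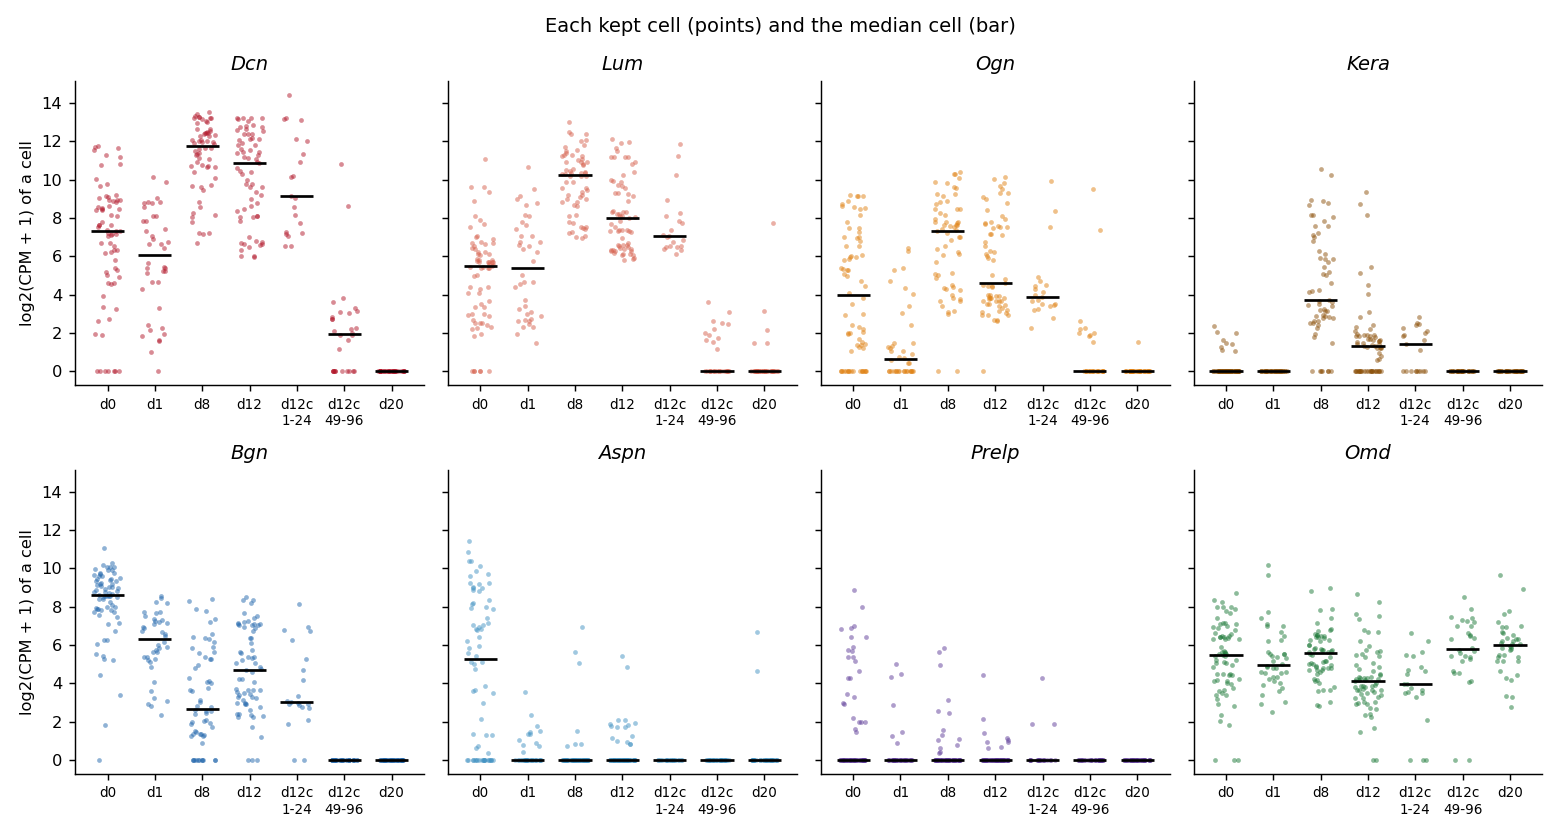
Log2(CPM + 1) of 8 members in each kept cell (points, vertical axes) at d0, d1, d8, d12, in d12c cells numbered 1 to 24 and 49 to 96, and at d20 (horizontal axes), with bars at the median cell. *Dcn* has no cell at 0 at d8 or d12 and all 38 cells at 0 at d20, *Aspn* spreads up to 2763 CPM at d0 and 10.5 at d1, and *Omd* is above 0 in all 38 d20 cells.

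Cells picked from colonies differed in these genes by their number. Of the 96 d12c cells, 45 were left out for few detected genes, and no kept cell had a number between the ranges given here. The cells left out had a median depth of 1028 UMIs, and 9 of them held 1752 *Dcn* UMIs and 1 held 5 *Aspn* UMIs. In the 21 d12c cells numbered 1 to 24, *Dcn* had 3207 CPM, with a median of 571, and all of them had UMIs of *Dcn*, *Lum* and *Ogn*. In the 30 cells numbered 49 to 96, *Dcn* had 75.1 CPM and a UMI in 19 cells (43.9 to 80.1% of cells), and 16.8 CPM without the highest cell, which was at 1766. No UMI of *Bgn*, *Fmod*, *Kera*, *Aspn*, *Prelp* or *Epyc* was found in these 30 cells, which allows up to 10.0% of cells to hold one for each by the limit of 3 cells and up to 11.6% by the Clopper-Pearson interval. *Omd* went the other way, with 23.8 CPM in the lower numbers and 86.0 in the higher ones. *Sox17*, the endoderm factor, had a mean of 212 CPM in the lower numbers and 650 in the higher ones, with medians of 12.5 and 600. *Col1a1* had means of 1468 and 4.64 CPM, with medians of 865 and 0. The d12c cells with low numbers differed from unpicked d12 cells by -0.43 in mean log2(CPM + 1) of *Dcn* and -0.57 of *Lum*, and d8c cells differed from d8 cells by -1.07 and -1.49. Whether the number blocks stand for libraries or colonies cannot be told apart.

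In the cells numbered 49 to 96, 4 members (*Dcn*, *Lum*, *Bgn* and *Ogn*) were lower by over 2 than in unpicked d12 cells, with differences of -8.11, -7.36, -4.69 and -4.44. Of all genes past the filter, which asked for a mean of 1 or more on this scale in one of the groups, 14.2% were lower by over 2 in this comparison, and their median difference was -0.34. Between d20 and these d12c cells, *Dcn* differed by -2.09, *Ogn* by -1.07, *Lum* by -0.46 and *Omd* by 0.22. Of the 9 members other than *Omd*, 30 of 38 d20 cells and 6 of 30 d12c cells with high numbers held no UMI, against none of the 67 d12 cells.

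**Figure D3:**
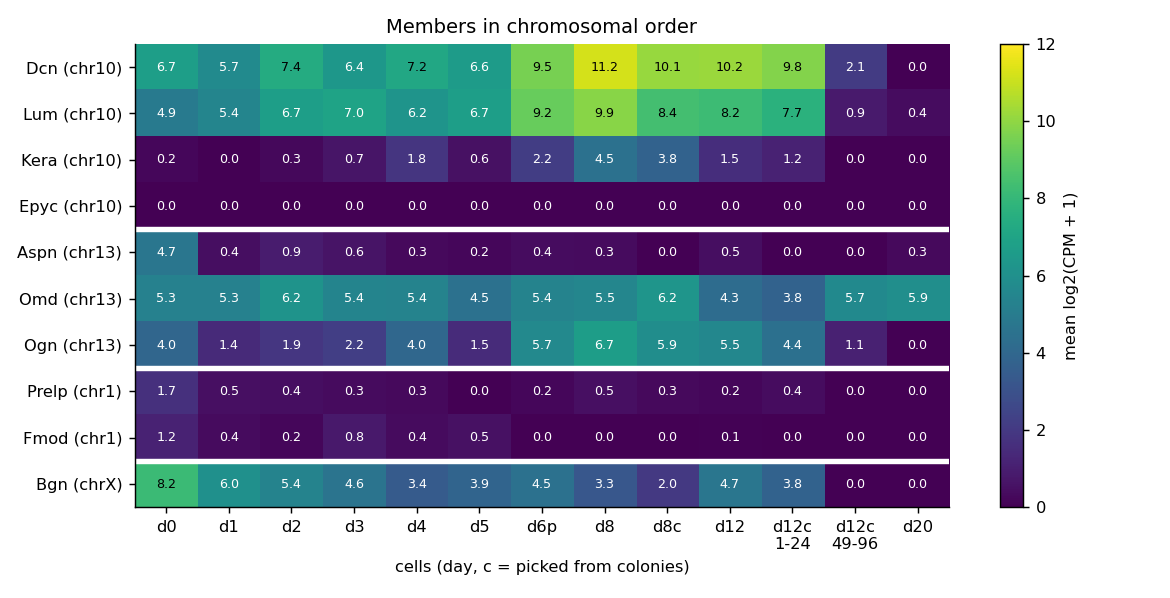
Mean log2(CPM + 1) (colour scale and printed values) of the members in their order along each chromosome (rows) over time points and colony cells (columns). On chromosome 10 *Dcn*, *Lum* and *Kera* share their highest level at d8 while *Epyc* stays at or near 0, and on chromosome 13 *Aspn* drops after d0, *Omd* stays between 3.77 and 6.24, and *Ogn* is highest at d8.

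Courses of neighbours on a chromosome were set side by side. Over the 12 groups, which share the library and depth differences given above, Pearson's r of mean log2(CPM + 1) was 0.96 between *Dcn* and *Lum*, 0.75 between *Dcn* and *Kera* and 0.72 between *Lum* and *Kera* on chromosome 10. On chromosome 13 it was 0.04 between *Ogn* and *Aspn*, -0.04 between *Ogn* and *Omd* and 0.00 between *Aspn* and *Omd*. On chromosome 1 it was 0.69 between *Prelp* and *Fmod*, and *Epyc* was too low to be compared. Pairs on different chromosomes reached 0.89 (*Dcn* and *Ogn*), 0.85 (*Ogn* and *Kera*) and 0.94 (*Aspn* and *Prelp*). The 12 groups come from 1 course and are not independent, so these values describe only the courses.

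Within time points, cells with more *Dcn* also held more *Lum*. Spearman's rho over cells was 0.55 at d0 (72 cells), 0.65 at d6p (86), 0.70 at d8 (62) and 0.66 at d12 (67), and within blocks of 24 numbers it ran from 0.53 to 0.81 at d8 and from 0.07 to 0.85 at d0. *Kera* followed *Dcn* at d8 with 0.41, and *Bgn* did not, with -0.04. *Ogn* and *Aspn* had 0.56 at d0 although their means over the groups did not move together. *Dcn* and *Omd* had -0.31 at d8. The cells of a time point share libraries and differ in depth, whose rho with *Dcn* was -0.10 at d8, and weak values are not read further.

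Set beside all genes, the members were spread over both ends of the range. Between d0 and d8, *Dcn* differed by 4.51, *Lum* by 4.99, *Ogn* by 2.68 and *Kera* by 4.25 in mean log2(CPM + 1), so that 4 of the 9 members past the filter were higher by over 2, where 4.89% of the 9557 genes past it were. *Bgn* (-4.92) and *Aspn* (-4.37) were lower by over 2, as were 3.0% of all genes. *Bgn* stood 5th among all genes from the largest fall and *Aspn* 14th, and *Lum* stood 25th from the largest rise. *Omd* differed by 0.22. *Ogn* did not pass 2 on the scale of mean CPM, at 1.46, nor between the nearest blocks of 24 numbers, with 5.73 in the lowest d8 block and 4.91 in the highest d0 block. Between the nearest blocks 3 members were thus higher by over 2, and *Bgn* and *Aspn* still lower.

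At d12 against d0, *Dcn* (3.49) and *Lum* (3.34) were higher by over 2, where 7.21% of 9611 genes were, and *Bgn* (-3.50) and *Aspn* (-4.25) were lower, where 4.19% were. *Ogn* (1.57) and *Kera* (1.35) did not pass 2. On the scale of mean CPM *Kera* did, with 22.9 CPM against 0.270, which was 84.7-fold higher. With the nearest blocks of 24 numbers compared, that is the lowest d12 block and the highest d0 block, neither *Dcn* (9.77 against 8.39) nor *Lum* (7.82 against 6.73) passed 2. Between d8 and d12, *Kera* was the member lower by over 2, where 1.96% of genes were, and *Dcn* differed by -1.01, *Lum* by -1.65 and *Ogn* by -1.12.

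Members also differed by over 2 between d0 and d1 and between d5 and d6p. At d1 *Bgn* (-2.15), *Ogn* (-2.53) and *Aspn* (-4.29) were lower than at d0 by over 2, where 1.08% of genes were, and the median difference over all genes past the filter was 0.43. Between the nearest blocks of 24 numbers neither *Bgn* (6.20 at d1 against 7.77 at d0) nor *Ogn* (1.61 against 3.08) passed 2, and *Aspn* did, at -2.48. *Omd* differed by 0.00 and *Lum* by 0.54. From d5 to d6p, *Dcn* (2.96), *Lum* (2.49) and *Ogn* (4.17) were higher by over 2, where 0.922% of genes were, and the median over all genes was -0.61. *Ogn* stood 7th from the largest rise among all genes in that step. At d4, however, the cells numbered up to 48 already held 121 CPM of *Ogn* and 1414 CPM of *Dcn*.

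At d20 against d12, *Dcn* differed by -10.20, *Lum* by -7.82, *Bgn* by -4.69 and *Ogn* by -5.51, so 4 of the 6 members past the filter were lower by over 2, where 13.8% of genes were. *Dcn* stood 4th from the largest fall among 9749 genes. *Omd* was higher by 1.66. On the scale of mean CPM *Kera*, at 0 against 22.9 CPM, was lower by over 2 as well. Against d0, *Dcn* (-6.70), *Lum* (-4.48), *Bgn* (-8.19), *Ogn* (-3.94) and *Aspn* (-4.42) were lower by over 2, where 8.92% of genes were, and between the nearest blocks *Lum* did not pass 2, at -1.90. On the scale of mean CPM *Fmod* (0 against 13.5 CPM) and *Prelp* (0 against 22.5) were lower than at d0 by over 2 as well. The comparisons at d8, d12 and d20 share the d0 cells. Of the 34 d20 cells left out for few detected genes, 2 held 1 *Dcn* UMI each and 22 held *Omd* UMIs.

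**Figure D4:**
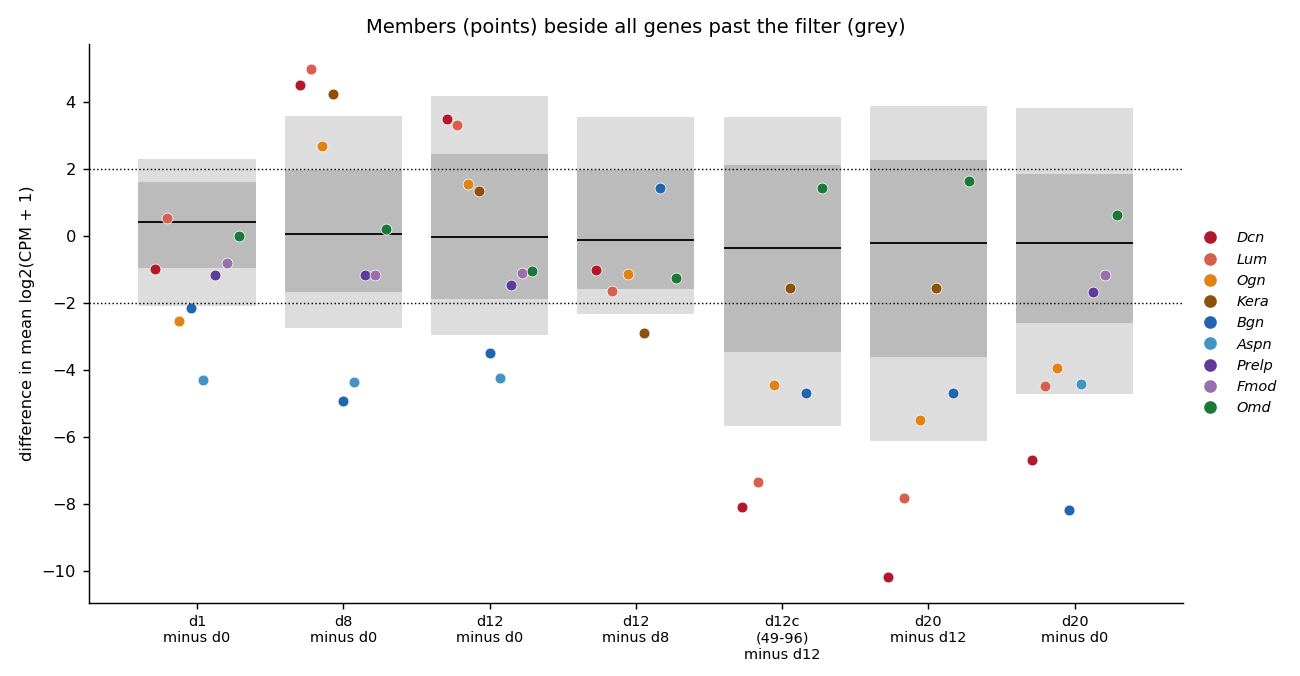
Difference in mean log2(CPM + 1) (vertical axis) of each member past the filter (points) in 7 comparisons (horizontal axis), with all genes past the filter shown from the 1st to the 99th percentile (light grey), from the 5th to the 95th (dark grey) and at the median (black line), and dotted lines at -2 and 2. *Dcn*, *Lum* and *Kera* lie above the 99th percentile at d8 against d0, *Bgn* and *Aspn* lie below the 1st, and *Dcn* lies at -10.20 at d20 against d12.

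Other genes around these proteoglycans were described by lists, each set beside all genes past the filter, whose median difference from d0 was 0.08 at d8, -0.01 at d12 and -0.20 at d20. Of all these genes, 4.89% were higher by over 2 at d8, 7.21% at d12 and 4.38% at d20, and 3.0%, 4.19% and 8.92% were lower. The lists are small, and counts of 1 to 3 genes are not read as a difference from these shares. The collagen fibril partners (17 genes, 15 past the filter) held 4 genes higher by over 2 at d8, 2 at d12 and 13 lower at d20, with a median difference over all 17 genes of 1.54 at d8, 0.87 at d12 and -5.17 at d20. At d12 *Thbs2*, a thrombospondin that binds matrix enzymes, was higher than at d0 by 4.70 and *Col3a1*, a fibril collagen, by 2.49. At d20 *Col1a1*, the main fibril collagen, differed from d0 by -9.50 and *Lox*, the enzyme that cross-links collagen, by -8.08. The list median was above that of all genes at d8 and below it at d20, as were *Dcn* and *Lum*.

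The enzymes that build glycosaminoglycan chains (27 genes, 18 past the filter at d8 and d12 and 19 at d20) were counted in the same way. Of them 2 were higher by over 2 at d8, 1 at d12 and 1 at d20, and 2 were lower at d20, where the shares over all genes were 4.89%, 7.21%, 4.38% and 8.92%, so those of d12 and d20 lay near them. *Chst11*, a chondroitin sulfotransferase, was higher by 3.03 at d12, and *B3galt6*, which builds the linker of the chains, by 1.81. At d20 *Chst15*, which makes a disulfated chondroitin, was higher by 2.99 and *Chsy1*, a chondroitin synthase, lower at -2.68.

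Of the processing enzymes and their enhancers (9 genes, 7 past the filter), 2 were higher by over 2 at d8 and at d12, 1 was lower at d12 and 5 were lower at d20, beside 4.89%, 7.21%, 4.19% and 8.92% of all genes. *Bmp1*, the procollagen protease that also trims biglycan and osteoglycin, was higher by 2.81 at d12 and the gelatinase *Mmp2* by 3.32. At d20 *Pcolce*, the enhancer of *Bmp1*, differed by -7.50 and the membrane protease *Mmp14* by -4.64.

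Of TGF-beta ligands, receptors and latency proteins (10 genes), 2 of 7 past the filter were higher by over 2 at d8, 3 of 9 at d12 and none of 8 at d20, and 1, 1 and 3 were lower. Over all genes the shares were 4.89%, 7.21% and 4.38% higher and 3.0%, 4.19% and 8.92% lower. The ligand *Tgfb2* was higher by 4.11 at d12 and the receptor *Tgfbr2* by 3.24. At d20 the ligand *Tgfb3* differed by -3.92 and *Ltbp2*, a latency-related matrix protein, by -3.29.

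Among large and cell-surface proteoglycans (14 genes, 11 past the filter), 2 were lower by over 2 at d8, 3 were higher and 1 lower at d12, and 5 were lower at d20. All genes had 3.0% lower at d8, 7.21% higher and 4.19% lower at d12 and 8.92% lower at d20, so the 1 of 11 lower at d12 lay near its share. *Sdc1*, a syndecan typical of epithelia, was higher by 3.26 at d12 and the pericyte proteoglycan *Cspg4* differed by -3.54. At d20 *Sdc2* differed by -4.97 and versican, *Vcan*, by -4.05. The other small leucine-rich proteoglycans (9 genes) were mostly too low. *Tsku* passed the filter in all 3 comparisons, did not pass 2 at d8, differed by 1.23 at d12 and by -2.51 at d20, and *Podnl1* passed it at d12 with 0.42.

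The genes whose mean log2(CPM + 1) over the 12 groups was most like that of a member were named by Pearson's r, as a description of 1 course. For *Dcn* these were *Oaz1* (0.96), *Lum* (0.96) and *Mgst1* (0.95), and for *Lum* they were *Cpq* (0.96), *Inhbb* (0.96) and *Dcn* (0.96), so that each was among the nearest genes of the other. For *Bgn* they were *Actb* (0.96), *Cd109* (0.95) and *Cav1* (0.94). The nearest gene to *Ogn* was *Pde8b* (0.96), to *Kera* *Nap1l5* (0.97), to *Aspn* *Mtus2* (0.98), to *Prelp* *Ctgf* (0.97), to *Fmod* *Ehbp1* (0.91) and to *Omd* *Mpv17l* (0.94).

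Markers of other cell types that could make these proteoglycans were summed in each cell. A median does not show a minority of such cells, so the highest cell is given as well. The chondrocyte list had a median sum of 2.36 CPM at d0 and 0 at d8, d12 and d20. Its highest cell was at 1048 CPM at d0, 43.5 at d8, 373 at d12 and 278 at d20. The tendon and bone lists are given above with *Kera* and *Omd*, and single cells of the bone list reached 7760 CPM at d5, 8263 at d6p and 7472 at d12. Muscle markers had a median sum between 0 and 13.3 CPM at d0, d8, d12 and d20, and their highest cell was at 20664 CPM at d0 and 816 at d12. On the same days macrophage markers had medians between 0 and 4.33 and endothelial markers between 0 and 3.62. Their highest cells on these days, both at d12, were at 392 and 308 CPM. In d12c a cell reached 55265 CPM of muscle markers. The part of such cells in the members' levels was not tested.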

How the data were processed

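The deposited table holds UMI counts per gene and cell. The authors made it by sorting reads into cells by barcode, trimming, alignment to mm9 transcripts and collapsing of reads with the same UMI, and the aligner is not given in the sources used here. Counts entered without scaling, ERCC spike-ins (92 entries) were left out of library sizes, and 4 entries with duplicated names were dropped. Only cells in which 4000 or more genes were detected entered, and their median depth was 510306 UMIs. The treatment was taken from the labels, which name C6FAE, although the study's methods add valproic acid for the induction medium. Levels are CPM, log2 values used a pseudocount of 1, genes needed a mean of 1 in either group, and a difference over 2 was counted. Cells are not replicates, so no test was made. Doublets were not called, since cells were picked by hand, and cell barcodes were not used here. The named genes were the 10 members, up to 4 genes a list with the largest differences at d20 and d12, and the genes most like each member, of which 3 were named for *Dcn*, *Lum* and *Bgn* and 1 for the others. Members and lists were chosen with earlier results of these data known. In simulated d12 and d0 data, 200 of 200 genes changed 16-fold passed 2, and 0 of 10489 unchanged genes did. The simulation changed only well-expressed genes, by far more than the threshold, and held no differences between libraries or number blocks. In the data the d0 blocks of *Dcn* alone spread by 4.35, so the simulation checks the calculation and gives no error rate for these data. Alternative scaling used edgeR 4.0.16 and DESeq2 1.42.0, and everything else Python 3.11.15 (scipy 1.17.1, pandas 2.3.3, numpy 2.4.6).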

Additional observations from a re-analysis of the deposited data

How the results depend on the processing

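No paired analysis was possible because cell names give neither batch nor replicate. Counts of members past a difference of 2 depended on scale, threshold, pseudocount and the number blocks compared. On log2 of mean CPM, edgeR TMM and DESeq2 size factors, 4 members were lower at d8 than at d0 and 4 at d12, since *Fmod* and *Prelp* joined *Bgn* and *Aspn*. On log2 of mean CPM *Kera* was also higher by over 2 at d12 than at d0. On that scale *Fmod* and *Prelp* were also lower at d20 than at d0, and *Kera* at d20 than at d12. With a threshold of 1, 4 were lower at d8, 5 lower at d12 and 4 higher at d12. With a pseudocount of 0.1, 4 were higher at d12, as *Ogn* and *Kera* joined. Comparing the nearest blocks of 24 numbers, an alternative added after seeing the data, left 0 higher at d12, 3 higher at d8, where *Ogn* no longer passed, and 4 lower at d20 than at d0, where *Lum* no longer passed. Of 19 member differences past 2 in the comparisons d8, d12 and d20 with d0 and d20 with d12, *Ogn* at d8 no longer passed on each of those 3 scales, and with a pseudocount of 10 neither *Ogn* at d8 nor *Ogn* at d20 against d0 (-1.97) did, and 0 changed sign under any of the 10 alternatives listed for them. Thinning to 50000 UMIs moved 75 of 120 shares of cells with a UMI out of their interval, so shares of low genes describe depth as well as level. The counts over all genes moved as well. With pseudocounts of 10 and 0.1 they went from 287 to 65 and 629 for genes lower at d8 than at d0, from 467 to 123 and 1216 for those higher, from 403 to 68 and 821 for those lower at d12, and from 693 to 206 and 1553 for those higher. For genes lower at d20 they went from 834 to 208 and 2008 against d0, and from 1348 to 413 and 2947 against d12. With a threshold of 1 the 6 counts, in the same order, were 1309, 1638, 1564, 1901, 2350 and 3009. On log2 of mean CPM and the edgeR and DESeq2 scales, 546 to 579 were lower and 763 to 791 higher at d8, 1069 to 1316 were higher at d12, and with edgeR 2027 were lower at d20 than at d12.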
